A study of Drosophila melanogaster with 3 samples.

Results

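The Hox genes of Drosophila melanogaster are 8 homeobox genes on chromosome arm 3R, and binding of the ETS-family transcription factor Ets21C was mapped along them by chromatin immunoprecipitation with sequencing (ChIP-seq). The members were the genes named lab, pb, Dfd, Scr, Antp, Ubx, abd-A and Abd-B in the Ensembl annotation, 8 of the 17683 genes on the main chromosome arms, and all 8 matched by name. There was 1 group of 3 biological replicates. Each was made from whole white prepupae, males and females pooled, of the strain d.ets6-GFP, a transgenic line that stably expresses Ets21C with a C-terminal eGFP, and the stage is the onset of metamorphosis. The age was labelled unknown, the replicates share 1 fly line, and which promoter drives the fusion is not stated in the labels. An antibody against GFP was used for the precipitation, although 1 label names Ets21C as the antibody. No untagged or control library was analysed, so no comparison between conditions was made and no test was run.

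Hox genes encode homeodomain transcription factors that give body segments their identity along the head-to-tail axis, and their order on the chromosome follows that axis. The Antennapedia complex holds lab, pb, Dfd and Scr, which act in the head and front of the thorax, and Antp, which acts in the thorax. The bithorax complex holds Ubx, which sets the third thoracic segment and the haltere apart from the wing, and abd-A and Abd-B, which pattern the abdomen. Their expression is set in the embryo by gap and pair-rule factors and kept on or off by trithorax and Polycomb proteins, through enhancers and response elements spread over long introns and the DNA between the genes.

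No Hox gene had an optimal Ets21C-eGFP peak at a promoter, and the optimal peaks inside Hox genes lay in long introns of Antp and Ubx. An optimal peak is in the list that the authors thresholded for reproducibility across replicates. The 4505 optimal peaks and the 4505 highest peaks of the list pooled over the replicates had the same median signal of 192.1. The optimal peaks of the Hox complexes had the same rank by signal in both lists. Membership thus followed pooled signal, and an optimal peak can be missing from a replicate. A promoter peak has its summit within 500 bp of an annotated transcription start site (TSS). Of the 8 Hox genes, 0 had an optimal promoter peak, where 15.2% of all 13945 protein-coding genes had one. With 8 genes, that share comes to very few genes, so the 0 does not set the Hox genes apart. Optimal summits lay inside Antp (7) and Ubx (2), and none lay inside the other 6 genes. All 8 Hox genes are longer than 10 kb, and of the 1977 coding genes of at least 10 kb, 47.6% held an optimal summit in the body or at a promoter and 49 held 7 or more. These counts were not matched for length, and 81 of the 1977 genes are longer than Antp. Another 8 optimal summits of the complexes lay within 20 kb of a Hox gene, and 2 lay between genes of a complex at more than 20 kb from any of them. That made 19 optimal peaks over both complexes with 20 kb on each side, 11 in the Antennapedia complex and 8 in the bithorax complex.

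The sequences under 7 of these peaks are shown, each 201 bases centred on the summit, to set the peaks inside Antp and Ubx and those among the abdominal genes beside each other. They are from the plus strand of the Release 6 (dm6) assembly as given by RefSeq, and capitals mark the ETS core GGAA or its complement TTCC.
Antp, highest, 3R:6914445-6914645: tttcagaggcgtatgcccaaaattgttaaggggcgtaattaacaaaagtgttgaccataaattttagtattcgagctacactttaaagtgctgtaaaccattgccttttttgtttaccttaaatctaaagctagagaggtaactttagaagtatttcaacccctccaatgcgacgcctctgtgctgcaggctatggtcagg
Antp, next in height, 3R:6951188-6951388: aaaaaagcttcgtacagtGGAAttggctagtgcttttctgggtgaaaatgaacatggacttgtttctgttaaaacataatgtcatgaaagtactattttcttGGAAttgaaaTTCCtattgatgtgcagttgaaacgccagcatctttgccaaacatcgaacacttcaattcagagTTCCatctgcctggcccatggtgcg
Antp, in the overlapping pair, 3R:6950170-6950370: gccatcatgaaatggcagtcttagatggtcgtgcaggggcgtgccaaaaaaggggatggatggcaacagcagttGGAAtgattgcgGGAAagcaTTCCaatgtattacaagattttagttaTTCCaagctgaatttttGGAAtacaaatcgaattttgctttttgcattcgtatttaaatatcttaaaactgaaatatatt
Ubx, far from the TSS, 3R:16704320-16704520: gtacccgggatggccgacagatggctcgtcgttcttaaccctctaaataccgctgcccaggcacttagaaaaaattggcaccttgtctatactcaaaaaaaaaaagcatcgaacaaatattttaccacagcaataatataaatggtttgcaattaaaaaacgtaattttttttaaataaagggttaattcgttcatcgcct
Ubx, nearer to the TSS, 3R:16718100-16718300: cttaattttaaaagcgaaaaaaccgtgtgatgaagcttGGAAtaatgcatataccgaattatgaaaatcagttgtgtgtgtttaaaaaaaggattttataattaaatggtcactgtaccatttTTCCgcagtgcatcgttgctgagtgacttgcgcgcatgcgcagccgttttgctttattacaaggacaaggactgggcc
beyond abd-A, 3R:16798779-16798979: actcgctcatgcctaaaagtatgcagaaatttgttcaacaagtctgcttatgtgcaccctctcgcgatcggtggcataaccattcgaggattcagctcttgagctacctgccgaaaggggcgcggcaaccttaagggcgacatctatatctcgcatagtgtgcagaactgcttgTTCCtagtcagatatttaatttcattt
in the iab region, 3R:16861312-16861512: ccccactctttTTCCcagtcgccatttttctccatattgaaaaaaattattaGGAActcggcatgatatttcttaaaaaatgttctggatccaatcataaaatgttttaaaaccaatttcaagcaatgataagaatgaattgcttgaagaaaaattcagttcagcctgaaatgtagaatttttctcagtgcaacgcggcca
The core stood 0, 4 and 5 times in the 3 Antp windows, 0 and 2 times in the Ubx windows, 1 time beyond abd-A and 2 times in the iab region. The highest peak inside any Hox gene held no core within 100 bp of its summit.

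The Antp peaks lay in a stretch of 38.8 kb of the gene, which encodes the homeodomain protein that promotes thoracic and leg identity. Antp (FBgn0260642, 3R:6896253-6999228, minus strand) spans 102976 bp and has 3 annotated TSSs and 12 transcripts. Its 7 optimal summits lay in introns, and the same positions are also intronic in CG46458, a gene that overlaps it. The highest, at 3R:6914421-6914643, had a signal of 414.5, which ranked 708 of the 4505 optimal peaks, whose median was 192.1. Signals are the authors' own values for each peak. They are on a separate scale in each list, so a height was taken as the signal over the median of the 4505 highest peaks of the same replicate, its top list. The heights of this peak were 2.65, 1.74 and 2.24 in replicates 1, 2 and 3, a mean of 2.21 ± 0.455 (SD, n = 3). It was above the median of the top list in every replicate.

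Next in height within Antp, a peak at 3R:6951190-6951386 had a signal of 320.4 and heights of 1.62, 1.46 and 1.85 (mean 1.64 ± 0.195, n = 3). It lay 7.08 kb downstream of the middle TSS of Antp. In the same intron, a peak at 3R:6950070-6950469, at a signal of 239.6, had heights of 1.45, 1.34 and 1.06 (mean 1.28 ± 0.199, n = 3). A lower peak at 3R:6950269-6950668 overlapped it, with summits 199 bp apart and a signal of 137.7, and it had a height of 0.615 in replicate 1 and 0.587 in replicate 3. Replicate 2 had a single summit there, between those of the pair, which was within 100 bp of the stronger peak and just past 100 bp from the lower one, so the lower peak was not counted as found in replicate 2. The summit of the stronger one at 3R:6951190-6951386 lay 819 bp beyond, and if the overlapping pair is counted once Antp holds 6 peaks.

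The remaining Antp peaks were nearer to the median of the top lists or below it. One at 3R:6936141-6936540 was the closest to a Hox TSS of all 19, 3.50 kb upstream of the third TSS of Antp, and varied least among the peaks found in every replicate, with heights of 1.16, 1.10 and 1.23 (mean 1.16 ± 0.0668, n = 3). Another, at 3R:6912328-6912727, lay 2.02 kb from the highest one and had heights of 1.17, 1.25 and 0.670 (mean 1.03 ± 0.313, n = 3). Replicate 3 was the low one there. The peak at 3R:6939634-6940033 had heights of 0.566, 0.546 and 0.694 (mean 0.602 ± 0.0801, n = 3), and only in replicate 3 did it reach the top list. Both peaks near the 3′ end of the gene were intronic in all 12 transcripts, in introns of 21047 to 60111 bp. The other 5 were intronic in the 6 transcripts that span them. In the top lists of replicates 1, 2 and 3, 6 summits each lay inside Antp, but not the same 6 in each. Of the 7 optimal Antp peaks, 5 were in all 3 top lists.

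**Figure D1:**
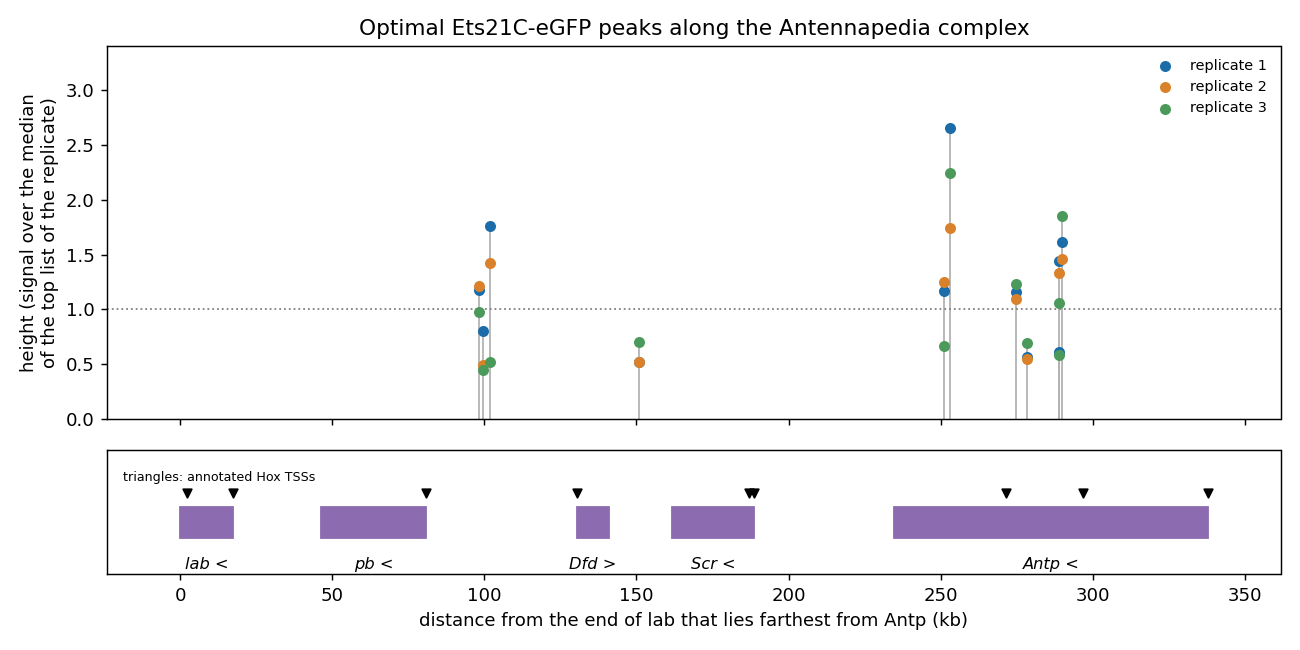
Upper panel: height of each of the 11 optimal peaks of the Antennapedia complex (signal over the median of the top list of the replicate, linear axis), 1 point per replicate, against distance along the complex in kb; the dotted line marks a height of 1. Lower panel: the 5 Hox genes with their direction and TSSs; 7 of the 11 peaks lie inside Antp, and none lies inside lab, pb, Dfd or Scr.

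Ubx, which represses wing-type development in the haltere, held both optimal summits of the bithorax complex that lay inside a gene of the Hox family. Ubx (FBgn0003944, 3R:16656623-16734426, minus strand) spans 77804 bp with 1 annotated TSS and 6 transcripts, and both summits were intronic in all 6. The peak at 3R:16704220-16704619, 30006 bp downstream of the TSS, had a signal of 191.8 and heights of 1.08, 0.811 and 1.03 in replicates 1, 2 and 3 (mean 0.974 ± 0.143, n = 3). Nearer to the TSS, 16.2 kb downstream of it, a peak at 3R:16718000-16718399 had a signal of 137.3 and heights of 1.12, 0.562 and 0.488 (mean 0.723 ± 0.345, n = 3). The first was in the top lists of all 3 replicates and the second only in that of replicate 1. The antisense RNA gene asRNA:PS4 starts 1.93 kb from the second summit. Another optimal peak, at 3R:16655642-16656041, lay 781 bp past the 3′ end of Ubx and 180 bp upstream of the TSS of modSP, which encodes a serine protease of the Toll cascade, so it cannot be assigned to Ubx from its position. Its heights were 0.815, 0.696 and 0.954 (mean 0.822 ± 0.129, n = 3).

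The abdominal genes abd-A and Abd-B held no optimal summit. The nearest to abd-A (FBgn0000014, 3R:16807214-16830049), at 3R:16798679-16799078, lay 8335 bp past its 3′ end in intergenic DNA and 1.72 kb upstream of lncRNA:CR45750. Its signal was 166.1, and its heights were 0.663, 1.24 and 0.645 (mean 0.851 ± 0.340, n = 3), with replicate 2 the high one. Further on, a peak at 3R:16861212-16861611 lay in the iab region between abd-A and Abd-B, whose regulatory domains set the identity of abdominal segments. It was in an intron of lncRNA:iab8, the noncoding RNA that hosts mir-iab-8, and of MSAmiP, 5.07 kb from the start of mir-iab-8. Its heights were 0.728, 0.537 and 0.722 (mean 0.662 ± 0.108, n = 3). No other optimal peak lay in the 124.3 kb between it and the next one, a stretch that contains all of Abd-B (FBgn0000015, 3R:16927212-16972236) with its 6 annotated TSSs.

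Upstream of Abd-B, 3 optimal peaks lay 13.5 to 19.8 kb from the gene, each within 500 bp of the TSS of another gene. The highest optimal peak of all 19, at 3R:16986527-16986738, lay in an exon of CG18622, 186 bp downstream of its TSS and 14.4 kb from Abd-B. Its signal was 475.5 and its heights were 3.07, 1.65 and 2.51 (mean 2.41 ± 0.715, n = 3). A second peak in CG18622, at 3R:16985560-16985959, 485 bp downstream of that TSS, had a mean height of 1.05 ± 0.127 (n = 3). Farthest from Abd-B, the summit of 3R:16991789-16992188 lay 11 bp from the TSS of lncRNA:CR45221 and 111 bp upstream of EMC2B, which encodes a subunit of the membrane protein insertion complex of the endoplasmic reticulum. It was found in replicates 2 and 3, at heights of 0.966 and 1.49, and not in replicate 1.

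**Figure D2:**
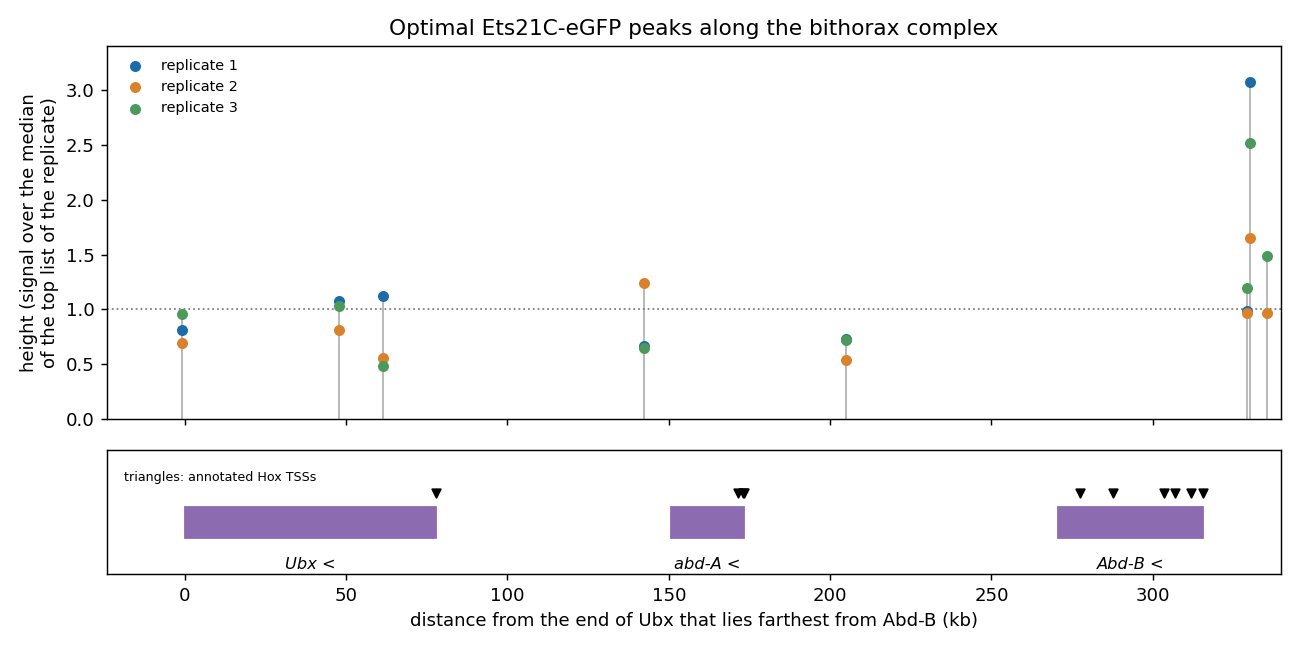
Upper panel: height of each of the 8 optimal peaks of the bithorax complex (signal over the median of the top list of the replicate, linear axis), 1 point per replicate, against distance along the complex in kb; the dotted line marks a height of 1. Lower panel: the 3 Hox genes with their direction and TSSs; 2 peaks lie inside Ubx, and the highest, 3.07 in replicate 1, lies 14.4 kb upstream of Abd-B at CG18622.

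Between the front genes of the Antennapedia complex, optimal peaks lay at other genes. The peak at 3R:6759433-6759832, 17.6 kb upstream of pb, was 167 bp upstream of the TSS of bcd, the maternal gene of the anterior morphogen Bicoid. Its heights were 1.17, 1.21 and 0.980 (mean 1.12 ± 0.123, n = 3), all 3 in the top lists. A weaker peak 1.48 kb upstream of bcd, at 3R:6760748-6761147, had heights of 0.808, 0.498 and 0.446 (mean 0.584 ± 0.195, n = 3). Beside them, 3R:6763114-6763213 had its summit 263 bp from a TSS of Ama, which encodes the immunoglobulin-domain protein Amalgam, and 337 bp from the TSS of lncRNA:CR45593. Its heights were 1.76, 1.42 and 0.525 (mean 1.24 ± 0.640, n = 3), and its summit was outside the top list in replicate 3. The peak at 3R:6812085-6812484, in an intron of lncRNA:CR42651 between Dfd and Scr, had heights of 0.523, 0.519 and 0.707 (mean 0.583 ± 0.107, n = 3). No optimal peak lay within 20 kb of lab (FBgn0002522, 3R:6661427-6678590), which acts in the embryonic head and the midgut, and the nearest was 81.0 kb from its TSS. From the peak in lncRNA:CR42651 to the first in Antp, 100.2 kb held no optimal summit, and Scr (FBgn0003339, 3R:6823120-6849981), which acts in the labial segment, the first thoracic segment and the salivary gland, lies in that stretch.

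The distance from a Hox TSS to the nearest optimal summit was smallest for Antp, at 3.50 kb. It was 13.5 kb for Abd-B, 16.2 kb for Ubx and 17.6 kb for pb (FBgn0051481, 3R:6707800-6742063), a gene of the mouthparts. It was 20.4 kb for Dfd (FBgn0000439, 3R:6791836-6802428), which acts in the maxillary and mandibular segments, 29.2 kb for abd-A, 36.2 kb for Scr and 81.0 kb for lab. None of the 19 Hox TSSs had an optimal summit within 1000 bp. Of the 19 optimal peaks, 6 lay within 500 bp of a TSS of another gene, and these belong to bcd, Ama with lncRNA:CR45593, modSP, CG18622 (2 peaks) and EMC2B with lncRNA:CR45221. The share of all optimal peaks that lie so near a TSS is not given here, so this count does not set the complexes apart.

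Weaker summits did lie at Hox promoters in the replicate and pooled lists, which hold background as well as peaks. In the whole lists of replicates 1, 2 and 3, 7, 5 and 8 Hox genes had a promoter summit, where 22.4%, 39.6% and 52.1% of all coding genes had one. The 8 Hox genes have 19 annotated TSSs, and these shares were not adjusted for the number of TSSs of a gene. In the pooled list, 3 Hox genes had one (lab, Dfd and Antp), where 36.6% of coding genes did. None of the summits from the replicate lists was in the top list of its replicate, and these top lists had promoter peaks at 8.68%, 17.4% and 18.6% of coding genes. Heights of the Hox promoter summits were 0.288 to 0.500 in replicate 1, 0.191 to 0.244 in replicate 2 and 0.127 to 0.324 in replicate 3. The lowest peaks of the top lists had heights of 0.615, 0.582 and 0.624. The strongest by rank was at Dfd in replicate 1, 341 bp downstream of the TSS, which ranked 7336 of 30000. In replicate 2 the Dfd summit lay 339 bp downstream of the TSS, at a height of 0.230, and in replicate 3 it lay 251 bp upstream, at 0.182.

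At 1 Hox promoter, the third TSS of Antp, the pooled summit was within 100 bp of a summit in the whole list of every replicate. The summit of replicate 3 lay on the other side of it from those of replicates 1 and 2, more than 100 bp from either. These summits had heights of 0.299, 0.237 and 0.276 in replicates 1, 2 and 3 (mean 0.271 ± 0.0316, n = 3). At the first TSS of Antp, replicates 2 and 3 had a summit 89 and 171 bp upstream, at heights of 0.195 and 0.324, and replicate 1 had none within 500 bp. At Ubx, only replicate 3 had a promoter summit, 215 bp upstream at a height of 0.156. At lab, the summits of replicates 1 and 2 lay at the second TSS and that of replicate 3 at the first.

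**Figure D3:**
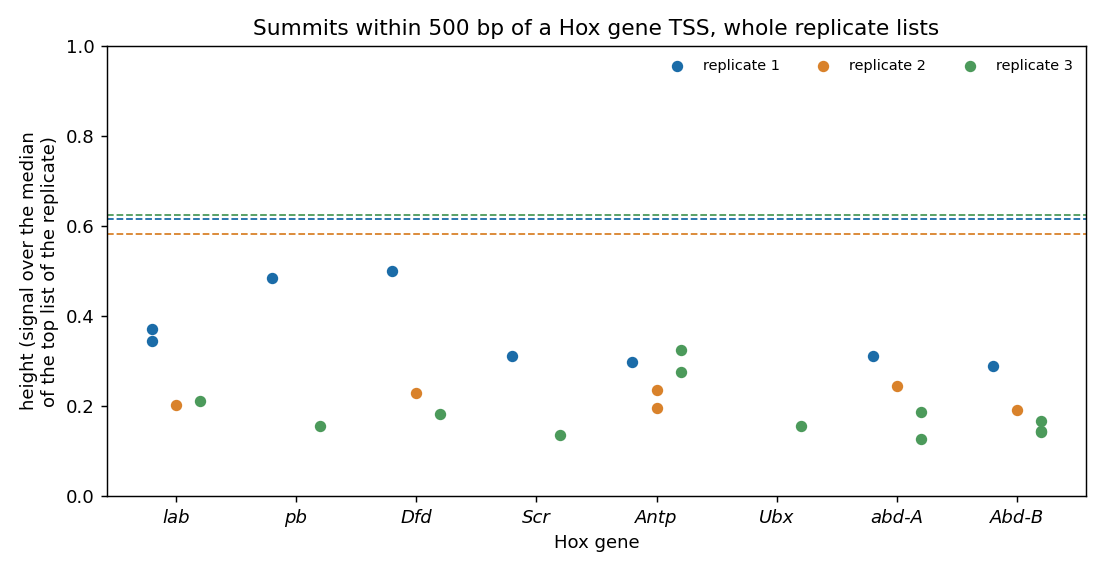
Height (signal over the median of the top list of the replicate, linear axis) of each summit within 500 bp of a TSS of a Hox gene in the whole list of each replicate, 1 point per summit. Dashed lines mark the lowest height in the top list of the replicate of the same colour (0.615, 0.582 and 0.624), and all points lie below them.

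Likeness of the promoter signal was taken over the 3 replicates, as the distance between log2 heights of the highest promoter summit, among 1612 coding genes with one in every whole list. Closest to Antp was corn at 0.0784, followed by Hs6st and MED25 at 0.156 each, with the same heights. Closest to lab was pros at 0.0695, followed by St3 and CG43133. Closest to abd-A was scro, to Abd-B CG8568 and to Dfd CG33467, at 0.131, 0.142 and 0.211. CG11594 and zyd came next to Dfd, CG33648 and RhoGAP100F to abd-A, and AstC-R1 and JMJD4 to Abd-B. Pb, Scr and Ubx had no promoter summit in 1 replicate or more. For lab, Antp, abd-A and Abd-B the highest summit was not at the same TSS in every replicate, so their heights do not describe a single promoter. These heights are all below the top lists and are given as a description only.

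Some genes with no optimal summit held a weaker pooled one with a summit of every replicate within 100 bp. The lowest optimal peak of the complexes, upstream of bcd, had a signal of 110.4, and the highest pooled peak outside the list had 105.3, at 3R:6818517-6818916 in the flank of Scr 1177 bp from a lysine tRNA gene. Pooled peaks outside the list had to be weaker, since the optimal list holds the peaks of highest pooled signal. Of 180 pooled peaks in both complexes, 19 were optimal (10.6%, against 16.6% on the main arms), and 14 of the others were found in all 3 replicates. That last share was not counted over the main arms, so these peaks cannot be set apart from other weak pooled peaks. Of these 14, 4 lay inside Antp away from its promoters and 1 at its promoter. Others lay inside lab (3R:6674543-6674942, signal 88.97, mean height 0.470 ± 0.156), inside Scr (3R:6843209-6843608, 90.2, 0.452 ± 0.0809) and inside Abd-B (3R:16958210-16958609, 78.6, 0.450 ± 0.105), each with n = 3. Another 3 lay between Ubx and abd-A. The highest of them (3R:16769416-16769815), 3573 bp from the TSS of lncRNA:bxd, a noncoding RNA of the bithoraxoid region that regulates Ubx, had a signal of 100.2 and heights of 0.791, 0.351 and 0.473. Only replicate 1 had it in the top list.

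The number of summits in the complexes differed between replicates. The complexes held 252, 197 and 148 summits in the whole lists of replicates 1, 2 and 3 and 27, 15 and 17 in their top lists. Replicate 1 had 11 top peaks there that were not optimal, against 2 in each of the others. Among them were 2 inside pb, at 3R:6724858-6725217 and 3R:6736569-6736928, found in no other replicate, and 1 inside lab. Of the 19 optimal peaks, 17 were found in the whole lists of all 3 replicates, a share not counted over the main arms. In all 3 top lists were 11 (57.9%, against 45.7% of the 4482 optimal peaks on the main arms). Leaving out replicates 1, 2 and 3 in turn and asking for a top peak in both others left 12, 12 and 12 of the 19. Sharing over all summits of the whole lists in the complexes was counted between pairs of replicates. These lists hold background, so the shares cannot be set against those of the optimal peaks. They were not counted over the main arms. Of those of replicate 1, 25.4% were within 100 bp of a summit of replicate 2 and 17.1% of replicate 3, and of those of replicate 3, 31.1% were within 100 bp of a summit of replicate 2. The order of the genes by summits per 10 kb also changed with the replicate. It was highest at lab in replicate 1 (4.66), at Dfd in replicate 2 (4.72) and at Antp in replicate 3 (3.01).

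Per length, optimal peaks were spaced over the complexes at 2.59 per 100 kb, where the main arms had 3.35 and arm 3R had 3.19. The median 100 kb window of the main arms held 3, with quartiles of 0 and 5. In the pooled list the order was the other way, with 24.5 per 100 kb in the complexes against 20.2 on the main arms. The whole lists were split, with 34.4 against 22.4 in replicate 1, 26.9 against 20.9 in replicate 2 and 20.2 against 22.4 in replicate 3. In the top list of replicate 1 the complexes had 3.68 against 3.35, in that of replicate 2 2.05 against 3.35, and in that of replicate 3 2.32 against 3.35, so the direction of this difference was not the same in every replicate. Inside the genes, Antp had 0.680 optimal summits per 10 kb and Ubx 0.257. The 1977 coding genes of at least 10 kb had a median of 0 and an upper quartile of 0.732, so Antp lay below that quartile. At promoters, 0 of the 8 Hox genes and 23.9% of the coding genes of at least 10 kb had an optimal peak. With 8 genes, this difference rests on very few genes and was not tested.

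**Figure D4:**
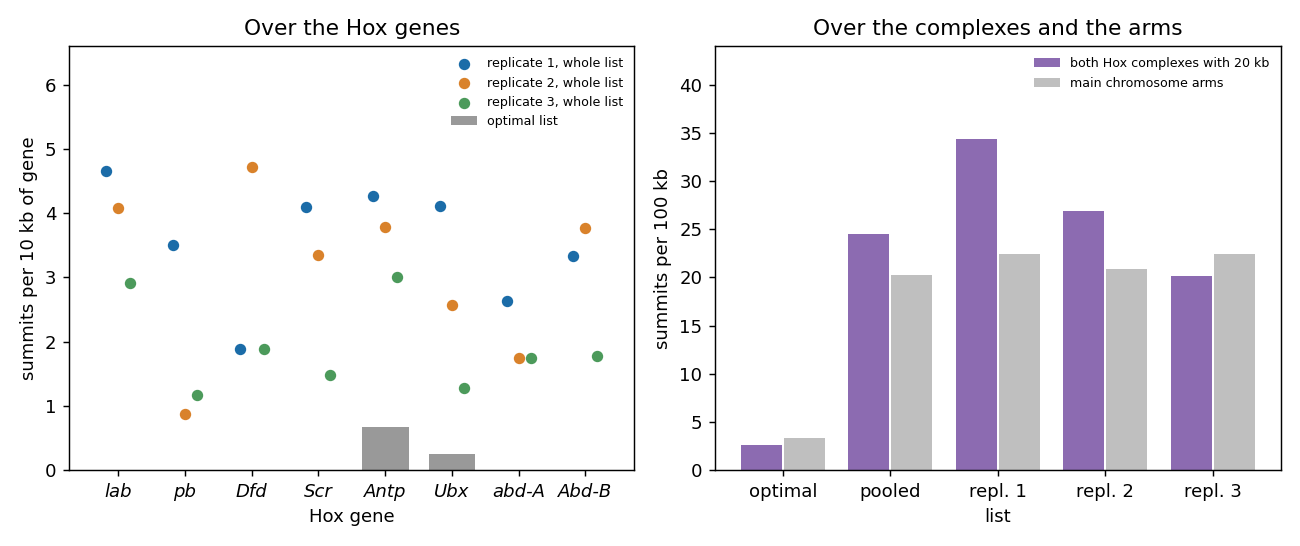
Left: summits inside each Hox gene or within 500 bp of its TSSs per 10 kb of gene, as bars for the optimal list and points for the whole list of each replicate. Right: summits per 100 kb over both complexes with 20 kb on each side and over the main chromosome arms, for each list; optimal peaks were at 2.59 and 3.35 per 100 kb, and pooled peaks at 24.5 and 20.2.

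Within 50 bp of the summits, the G and C share was 33.0 ± 4.64% (SD over 9 peaks) inside Antp and Ubx and 35.0 ± 7.67% over all 19 peaks, against 32.4 ± 7.67% over all 4482 optimal peaks of the main arms. Inside Antp and Ubx it ranged from 24.8% to 39.6%, and over the 19 from 23.8% at the weaker bcd peak to 55.4% at the peak beyond abd-A. Within 100 bp of a summit on either strand, the ETS words CCGGAAGT and CCGGAAGC were at 0 of the 19 summits, and at 0.178% and 0.112% of all optimal summits. The core GGAA was at 15 of 19 (78.9%, against 74.1%). The AP-1 word TGANTCA was at 0 (against 5.20%). The Hox and Extradenticle word TGATNNAT was at 4 and at none of the 9 inside Antp and Ubx (15.1% of all), and the homeodomain word TAATTA at 3 (17.7%), including 1 Antp and 1 Ubx peak. GAGAG was at 6 (19.8%), AGATAA at 2 (14.5%) and the DRE word TATCGATA at 1 (2.48%), the peak at modSP. TAATTA and TGATNNAT can overlap each other by a few bases. With 19 peaks, a single peak moves a share by 5.26 percentage points, so these shares were not set apart from those of all optimal peaks.

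Lists of genes that act with, above or below the Hox genes, and of related homeobox genes, were first counted for optimal promoter peaks. Of 12 Hox cofactors, 1 had one (8.33%, against 15.2% of coding genes), at apt, which encodes a DNA-binding protein (signal 205.2, mean height 1.05 ± 0.215, n = 3), and achi and disco were among those without. Of 14 upstream regulators such as the gap and pair-rule genes, 13 matched by name and 0 had one, cad and eve among them. Of 18 Hox target genes, 2 had one: the cell death gene hid (713.7, 3.84 ± 0.975, n = 3) and CrebA, a regulator of secretory genes in the salivary gland (214.0, found in 2 replicates), but not bab1 or bs. Of 30 other homeobox genes of the same class, 4 had one (13.3%). They were NK7.1 (482.0, 2.57 ± 0.684, n = 3), the heart gene tin (267.0, found in 2 replicates), H2.0 (262.2, 1.41 ± 0.371, n = 3) and bcd, and B-H1 and B-H2 were among those without. With gene bodies counted too, 4 cofactors (33.3%), 0 upstream regulators, 8 target genes (44.4%) and 5 of the other homeobox genes (16.7%) held an optimal summit. Among the Hox genes it was 2 (25%), and among coding genes of at least 10 kb 47.6%. The lists were not matched for gene length, so these shares are a description only. Some genes, such as en and ems, are in more than 1 of these lists.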

How the data were processed

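ChIP-seq peak lists of 3 replicates of Ets21C-eGFP white prepupae were used. Per the labels, chromatin was sheared by sonication to 200 to 800 bp. The signal of each peak is the value the authors deposited with it. Per the labels, a replicate list was made from its own reads and a control, the pooled list from all 3 replicates, and the optimal list from these by the irreproducible discovery rate (IDR). Caller, version and thresholds are not stated there. The lists hold no reads, so depth is unknown. They held 4505 (optimal), 27085 (pooled), 30000, 28006 and 30000 peaks (replicates 1, 2 and 3). A height is an average over all cells of the animals, so strong binding in few cells and weak binding in many cannot be told apart.

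The dm6 lists were read with Ensembl release 115 (13945 coding genes, transposable elements left out), and coordinates are 1-based. The dm3 lists were not used here. A top list held the 4505 peaks of highest signal, a peak was found in a replicate where a summit of that replicate lay within 100 bp of its own, and words were counted within 100 bp of summits. Counting was tested on simulated data. Python 3.11.15, pandas 2.3.3 and numpy 2.4.6 were used. The minimum of 10 kb for long genes was chosen after seeing the data. Genes named besides the members were those of the complexes with an optimal summit within 500 bp of a TSS, in each list up to 4 with a strong promoter peak and 2 that had none, and the 3 nearest in likeness. Peaks named outside the optimal list were chosen after their values were seen. The members and lists were chosen with earlier results of these data known.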

Additional observations from a re-analysis of the deposited data

How the results depend on the processing

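No Hox gene had an optimal promoter peak with promoters of 1000 bp, and none had a promoter peak in the top list of any replicate. A narrower promoter of 250 bp, optimal peaks above the median signal and leaving out a replicate also gave 0, which they had to, since each takes from a list with 0. The pooled list gave 3 genes and the whole lists of replicates 1, 2 and 3 gave 7, 5 and 8. Of the pooled Hox promoter peaks, 0 reached the top list of every replicate, and 1 had a summit within 100 bp in all 3 whole lists. The 17 optimal peaks over or within 20 kb of Hox genes became 10 with flanks of 5 kb, 9 without flanks, 9 above the median signal and 158 in the pooled list. The 11 of the Antennapedia complex became 7 above the median signal and 110 in the pooled list, and the 8 of the bithorax complex 3 and 70. The density of 2.59 per 100 kb became 1.36 and 24.5, where the main arms had 1.66 and 20.2. Leaving out a replicate asked for a top peak in each of the remaining replicates. It left 11 to 12 of the 17 peaks, 6 to 7 of the 11, 5 to 6 of the 8, 5 of the 7 inside Antp (an alternative added after seeing the data) and 1.64 per 100 kb, where the main arms had 2.16, 1.72 and 1.85 without replicates 1, 2 and 3. Of the 19 peaks, 11 were in all 3 top lists and 17 in all 3 whole lists. With other summit distances or overlapping intervals this count was 9 to 12. All 57 mean heights with a replicate left out stayed within 1 SD, which they had to, since the SD is over the same few values. Heights over the median of the 500 highest peaks, a higher divisor, were lower at all 19 peaks. Counting the overlapping Antp pair once was also added after seeing the data. No paired analysis was possible because there was 1 group. The number of replicates and the unknown depth limit these values, and no control library was analysed here.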
